A study of Mus musculus with 90 samples.

Results

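The 6 skeletal muscle libraries of an atlas of 90 mouse libraries were compared between 2 phases of the estrous cycle. They were chosen by their tissue label alone, 3 of estrus and 3 of diestrus, and hold 1 of the 15 tissues that were sequenced. All mice were C57BL/6 females (C57BL/6J in the study), aged 10 weeks by the sample labels. The study's methods give a younger age. No group had a transgene, deletion or treatment, and all mice were kept under a 12-h light/dark cycle. The phase was read from vaginal smears stained with methylene blue, and the tissue was frozen on dry ice before RNA extraction and sequencing on the BGISEQ-500. The label says muscle and no more, so the anatomical muscle that was sampled is not given. Each library was taken by the study to be a separate mouse, and no batch, litter or time of day is labelled.

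Skeletal muscle is built of fibres that differ in their myosin heavy chain. Slow fibres use Myh7, hold much myoglobin and many mitochondria, and burn fat, whereas fast fibres use Myh2, Myh1 or Myh4 and lean increasingly on glycolysis. The mix of fibre types differs between muscles and between parts of 1 muscle, so a small piece of tissue can carry more or fewer slow fibres. Estrus follows the rise of ovarian estrogen before ovulation, diestrus is the phase of the corpora lutea, and muscle fibres carry receptors for estrogens, androgens and glucocorticoids.

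The labels matched the tissue in all 6 libraries. Expression was taken to be in FPKM, fragments scaled to transcript length and library size, which is a level per length. Acta1, skeletal muscle actin, was at 24253 to 29259 FPKM and Ckm, muscle creatine kinase, at 12221 to 16080 FPKM. Myh6, the heart's myosin, was at 0.05 to 0.87 FPKM and Nppa, the atrial hormone gene, at 0 to 0.39 FPKM. Of 20414 genes listed, 10680 averaged 1 FPKM or more in muscle, and these were tested. The 6 libraries correlated with each other at Pearson r of 0.971 to 0.991 over these genes.

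Traces of other organs split the libraries in a way that crossed the phases. Genes at 1 FPKM or more in some libraries and at 0.1 or less in the rest were counted after the values had been seen. Estrus replicates 1 and 2 alone shared 14 such genes, most of them gastric, such as the secreted stomach peptides Tff1, Tff2, Gkn1 and Gkn2, and also the pituitary hormones Prl and Gh. Tff1 was at 16.07 and 14.95 FPKM in those 2 libraries and at 0 in the other 4, against a mean of 21537 FPKM in stomach. Estrus replicate 3 and the 3 diestrus libraries shared 4 genes, among them the steroidogenic enzyme Cyp11a1. Its level was 2.54 to 2.65 FPKM in those 4 libraries, 0.04 and 0.07 FPKM in the other 2, and 2644 FPKM on average in ovary. Diestrus replicate 1 alone held 10 genes, mostly of squamous epithelium, and diestrus replicate 2 alone held Alb and Fabp1. Estrus replicates 1 and 2 also shared 4 genes with diestrus replicate 2, among them Snap25 and Sncb, so the traces did not split the libraries in only 1 way. The part of these traces in the differences below was not tested. The main results are therefore also given for estrus replicate 3 against the 3 diestrus libraries, which all held the traces such as Cyp11a1.

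The first question was which single genes differed between the phases by more than the spread between mice. One gene of 10680 (0.00936%) passed a log2 fold change of 1 and a Benjamini-Hochberg adjusted p of 0.05 in limma, the muscle gene Mss51. Without the limit on the fold, 2 genes passed (0.0187%), and the second was Mad2l1bp. Mss51 is a skeletal muscle gene with a zinc finger domain, known for responding to myostatin signalling and for a loss that raises oxidative metabolism in muscle cells. Mad2l1bp encodes a protein that binds the spindle checkpoint protein MAD2 and removes it from its complexes.

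Mss51 was at 17.5, 17.17 and 18.32 FPKM in the 3 estrus libraries and at 5.69, 7.58 and 7.07 FPKM in the 3 diestrus libraries. All 3 estrus libraries lay above all 3 diestrus libraries by a gap larger than the spread within either phase. The means were 17.7 ± 0.592 FPKM (SD, n = 3) and 6.78 ± 0.978 FPKM (SD, n = 3), so Mss51 rose by 1.27 on the log2(FPKM + 1) scale (SE 0.10, adjusted p = 0.0294, limma with Benjamini-Hochberg adjustment). Muscle was the highest of the 15 tissues for Mss51, the next being spleen at 3.19 to 4.71 FPKM, while heart, the other striated muscle, held 0.19 to 0.37 FPKM. At low levels, estrus also lay above diestrus without overlap in uterus, at 2.11 to 3.89 against 1.15 to 1.78 FPKM. The same held in ovary (1.38 to 2.0 against 1.2 to 1.35 FPKM) and kidney (0.63 to 0.93 against 0.36 to 0.57 FPKM). In the other tissues the phases overlapped.

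Mad2l1bp went the other way. Its levels were 7.64, 7.25 and 7.2 FPKM in estrus and 14.37, 14.92 and 13.27 FPKM in diestrus, with no overlap and with little spread in either phase. The means were 7.36 ± 0.241 FPKM (SD, n = 3) and 14.2 ± 0.840 FPKM (SD, n = 3), so Mad2l1bp fell by 0.86 on the log2 scale (SE 0.07, adjusted p = 0.0294, limma with Benjamini-Hochberg adjustment). In heart the same gene was at 13.13, 12.07 and 11.57 FPKM in estrus and 11.35, 12.15 and 9.63 FPKM in diestrus, so the low levels in estrus muscle stood apart from both phases of heart. Stomach was also lower in estrus without overlap, at 11.02 to 13.46 against 15.23 to 17.25 FPKM. Cerebrum was higher in estrus without overlap, at 3.73 to 4.04 against 3.31 to 3.68 FPKM, and the phases overlapped in the other tissues.

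The size of both differences changed little when single libraries were left out, but the call did. Without 1 library in turn, the log2 difference of Mss51 ran from 1.16 to 1.34 and that of Mad2l1bp from −0.90 to −0.82. With 5 libraries, the limma adjusted p of Mss51 rose above 0.05 without estrus replicate 2 (0.109), diestrus replicate 1 (0.0649), diestrus replicate 2 (0.0598) or diestrus replicate 3 (0.197). That of Mad2l1bp did so without the same libraries (0.119, 0.293, 0.0656 and 0.197). For estrus replicate 3 against the 3 diestrus libraries, which share the traces such as Cyp11a1, the log2 differences were 1.32 for Mss51 and −0.89 for Mad2l1bp. That comparison holds 1 estrus library and so shows no spread within estrus.

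**Figure D1:**
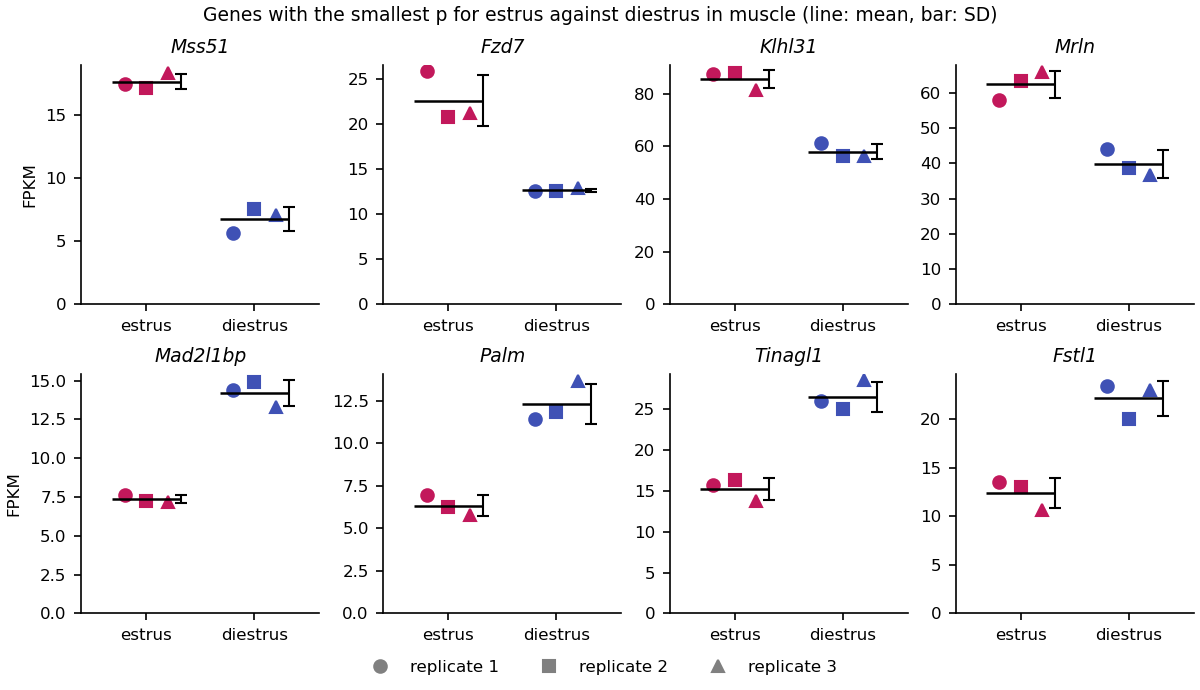
FPKM (vertical axes) of Mss51, Fzd7, Klhl31, Mrln, Mad2l1bp, Palm, Tinagl1 and Fstl1 in each estrus and diestrus muscle library (points, n = 3 a phase), with the mean (line) and SD (bar). The 3 estrus libraries lie clear of the 3 diestrus libraries in all 8 genes, which was part of the rule for naming them, with Mss51 at 17.17 to 18.32 against 5.69 to 7.58 FPKM.

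The upstream sequences of both genes are shown because their transcripts were those that passed the test. They are the 250 bases before each annotated start in RefSeq's GRCm38.p6, on the minus strand, for Mss51 at chr14:20496902-20497151 and for Mad2l1bp at chr17:46153552-46153801, outside the annotated genes, which span chr14:20482857-20496901 and chr17:46147385-46153551.
Mss51: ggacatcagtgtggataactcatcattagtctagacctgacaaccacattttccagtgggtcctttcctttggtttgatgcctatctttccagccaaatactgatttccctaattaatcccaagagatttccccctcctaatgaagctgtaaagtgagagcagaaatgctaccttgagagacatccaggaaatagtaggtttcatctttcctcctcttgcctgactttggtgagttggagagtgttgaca
Mad2l1bp: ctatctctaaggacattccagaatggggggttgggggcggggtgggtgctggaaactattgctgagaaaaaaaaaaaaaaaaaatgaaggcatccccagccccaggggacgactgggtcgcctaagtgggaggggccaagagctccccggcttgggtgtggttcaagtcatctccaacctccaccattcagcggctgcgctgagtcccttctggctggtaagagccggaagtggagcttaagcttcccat
In the 300 bases from 250 before to 50 after each start, neither strand held the E-box letters CANNTG, the letters CAGAC of a SMAD binding element, the hormone receptor hexamer AGGTCA or the MEF2 motif. Of 8558 promoters of tested genes, 62.6% held CANNTG, 47.2% CAGAC, 12.1% AGGTCA and 1.88% the MEF2 motif. The absence says only that these letters are not in these windows.

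Below the threshold, further genes were ranked by p. At a limma adjusted p of at most 0.1, 240 genes (2.25% of those tested) stood out, 31 higher in estrus (0.290%) and 209 lower (1.96%). The genes named next are those with the smallest p in each direction among genes with a log2 difference of at least 0.5 and no overlap between the phases. Apart from Mss51 and Mad2l1bp, none passed 0.05, with adjusted p from 0.086 to 0.094 in limma.

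Besides Mss51, 11 genes were named on the higher side. Fzd7, a Wnt receptor of satellite cells and fibres, was at 25.91, 20.79 and 21.26 FPKM in estrus and 12.62, 12.6 and 12.9 FPKM in diestrus (log2 difference 0.78, SE 0.09). Klhl31, a Kelch protein that muscle needs for orderly sarcomeres, was at 87.29, 87.77 and 81.48 FPKM against 61.17, 56.28 and 56.12 FPKM (log2 difference 0.56, SE 0.07). Absence of overlap between the phases was part of the rule for naming these genes. Mrln encodes myoregulin, a micropeptide that inhibits the calcium pump of the sarcoplasmic reticulum. It was at 58.03, 63.14 and 65.72 FPKM in estrus and 44.01, 38.71 and 36.54 FPKM in diestrus (log2 difference 0.64, SE 0.09). Slc38a4, a transporter of neutral and cationic amino acids, was at 23.6, 20.91 and 26.08 FPKM against 14.04, 12.47 and 10.65 FPKM (log2 difference 0.88, SE 0.12). A second amino acid transporter, Slc43a1, had a log2 difference of 0.67 and ran from 10.13 to 12.46 FPKM in estrus and from 6.16 to 6.69 FPKM in diestrus. The other 6 genes were Tlcd4, the protease gene Ddi2, the phosphatase gene Dupd1, Cyp4f39, the kinase gene Mast4 and Gdap1 of the outer mitochondrial membrane, with log2 differences of 0.54 to 0.73.

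On the lower side, 11 genes of different functions were named besides Mad2l1bp. Lims2, an adaptor of focal adhesions, was at 17.95, 19.2 and 15.36 FPKM in estrus and 30.11, 29.57 and 31.03 FPKM in diestrus (log2 difference −0.76, SE 0.09). Tinagl1, a secreted matrix protein, was at 15.69, 16.39 and 13.75 FPKM against 26, 25.05 and 28.6 FPKM (log2 difference −0.76, SE 0.09). Palm, which encodes the membrane protein paralemmin, was at 6.98, 6.27 and 5.77 FPKM in estrus and 11.43, 11.82 and 13.67 FPKM in diestrus (log2 difference −0.86, SE 0.10). The phases did not overlap in any of the 3, as the rule for naming them required. Fstl1, a secreted glycoprotein of the follistatin family, was at 13.54, 13.04 and 10.7 FPKM against 23.45, 20.06 and 22.98 FPKM (log2 difference −0.79, SE 0.11). Ddit3, the transcription factor of the stress response also called CHOP, was at 11.23, 9.99 and 8.98 FPKM against 21.27, 16.43 and 20.05 FPKM (log2 difference −0.87, SE 0.12). The remaining 6 were Ier3, the formin gene Inf2, the guanine nucleotide exchange factor gene Arhgef3, Heg1, Crip2 and Mrm3, a methyltransferase of mitochondrial ribosomal RNA, with log2 differences of −0.83 to −0.56.

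Across all tested genes the differences leaned to lower levels in estrus. By sign alone, 7523 genes (70.4%) were lower in estrus and 3157 (29.6%) higher, and the median log2 difference over all genes was −0.08. The phases did not overlap in 2337 genes that lay lower in estrus (21.9%) and in 456 that lay higher (4.27%). At an unadjusted p under 0.05 in limma, 304 genes were higher in estrus (2.85%) and 1921 lower (18.0%). The lean depended on the scaling of the libraries: lower genes made up 86.3% of the 2225 genes at this level in FPKM as deposited, 58.5% with equal library medians and 52.4% after quantile normalization. Quantile normalization moved the median over all genes to 0.02, so the members of each group below are read against all genes, and list medians are also given with equal medians and, where the median or a count moved by more than 1.5 times, after quantile normalization.

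The lean also differed between the estrus libraries. Of all genes tested, 35.5% lay below all 3 diestrus libraries in estrus replicate 1, 48.4% in estrus replicate 2 and 57.1% in estrus replicate 3. In the other direction the shares were 24.4%, 16.3% and 14.6%. Estrus replicate 1 was therefore the nearest to diestrus, and the number of genes passing both limits was 87 without it, 2 without estrus replicate 2, 14 without estrus replicate 3, 0 without diestrus replicate 1 or 3 and 1 without diestrus replicate 2.

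The libraries differed widely in slow fibre genes. The share of Myh7 in the summed FPKM of the 4 adult myosin heavy chain genes served as the slow fibre share of a library. It was 0.749, 0.00616 and 0.00174% in estrus replicates 1 to 3 and 3.38, 0.888 and 0.683% in the diestrus libraries. Estrus replicate 1 lay between the diestrus libraries, whereas estrus replicates 2 and 3 held almost no Myh7 at all. The means differed by −1.40 percentage points, with an exact permutation p of 0.2, two-sided, where 0.1 is the smallest p that 3 libraries against 3 allow. The other myosin genes differed too. The share of Myh4, the fastest isoform, was 80.1, 91.4 and 93.9% in estrus and 72.4, 76.5 and 73.9% in diestrus, with no overlap. Myh2 made up 5.80, 0.986 and 1.41% in estrus and 11.5, 5.90 and 6.59% in diestrus, also with no overlap, and Myh1 made up 13.4, 7.64 and 4.73% against 12.7, 16.7 and 18.8%, where estrus replicate 1 lay within the diestrus range.

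The slow isoforms of other contractile proteins split the libraries in the same way. Myh7 itself was at 69.35, 0.59 and 0.19 FPKM in estrus and 246.56, 73.73 and 55.68 FPKM in diestrus. Tnnt1, slow troponin T, was at 147.75, 1.9 and 3.15 FPKM against 483.44, 152.25 and 118.11 FPKM. Tnnc1, troponin C of slow fibres and heart, was at 127.48, 0.88 and 0.83 FPKM against 435.24, 132.87 and 104.93 FPKM. In each of the 3 genes estrus replicates 2 and 3 were far below all others, diestrus replicate 1 was the highest, and estrus replicate 1 was level with diestrus replicates 2 and 3. All 15 tested slow fibre genes were lower in estrus by sign, with a median log2 difference of −2.45 (−2.36 with equal medians), and 12 of them had an unadjusted p under 0.05 (beside 18.0% of all genes lower at that level), but the phases overlapped in 12 of the 15. Without estrus replicate 2, estrus replicate 3 or diestrus replicate 1 the number under 0.05 was 2, 2 and 1, and none passed an adjusted p of 0.05 in the 6 libraries.

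Most fast fibre genes were higher in estrus, by smaller amounts. Of 17 tested, 14 were higher by sign, with a median log2 difference of 0.21 that was 0.30 with equal medians and 0.031 after quantile normalization. Of the 17, 5 were higher at an unadjusted p under 0.05, beside 2.85% of all genes. The 5 became 8 with equal medians, 10 without estrus replicate 1, 3 without diestrus replicate 2 and 2 without estrus replicate 2, estrus replicate 3 or diestrus replicate 1. Over all genes, the 304 higher became 818 with equal medians and 393 without estrus replicate 1. Myh4 was at 7408, 8756 and 10269 FPKM in estrus and 5279, 6352 and 6022 FPKM in diestrus (log2 difference 0.57). Pvalb, the calcium buffer parvalbumin of the fastest fibres, was at 11816, 13584 and 14575 FPKM against 8971, 11081 and 10508 FPKM (log2 difference 0.39). Both had all estrus libraries above all diestrus libraries, with adjusted p of 0.108 for Myh4 and 0.162 for Pvalb in limma. Actn2, the Z disc actinin of every fibre type, was lower at 440.14, 176.82 and 151.83 FPKM against 604.42, 461.47 and 506.8 FPKM. Among the Z disc and sarcomere genes that all fibres share, 9 of 19 were higher and 10 lower by sign, with a median log2 difference of −0.030 that turned to 0.063 with equal medians.

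The next comparison separated the genes that follow this share from the rest. A gene was counted as a follower when its log2 level had an absolute Pearson r of at least 0.8 with the log2 slow fibre share over the 6 libraries after the mean of each phase had been removed from both. This left 2697 followers (25.3% of genes tested), 2198 with a positive r (20.6%) and 499 with a negative r (4.67%). The r is a description over 6 libraries and carries no test. The most abundant positive followers were Mb, which encodes myoglobin, the mitochondrial carrier Slc25a4, Cox6a2, Atp5b, the small heat shock protein Hspb6, Ndrg2, the mitochondrial creatine kinase Ckmt2, Cox7c, Chchd10 and Atp5g1. The most abundant negative followers were the fast fibre and glycolytic genes Tpm1, Ckm, Myl1, Tnnc2, Aldoa, Mylpf, Pvalb, Gapdh, Atp2a1 and Tnni2. One library carried much of this measure. Estrus replicate 1 held 59.8% of the summed squares of the share within phases, and of the 2697 followers 932 (34.6%) were kept when it was left out, against 77.0% to 99.9% for the other libraries.

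Positive followers and the genes that do not follow the share leaned to lower levels in estrus, the positive followers more. The negative followers did not. Of the 2198 positive followers, 634 (28.8%) had an unadjusted p under 0.05 and were lower in estrus, and 15 were higher. Of the 499 negative followers, 24 were lower (4.81%) and 45 higher (9.02%), with a median log2 difference of 0.016. Among the 7983 genes that do not follow the share, 1263 (15.8%) were lower and 244 higher, beside 18.0% and 2.85% over all genes. Both genes that passed an adjusted p of 0.05 were in this last set, Mss51 with r = −0.33 and Mad2l1bp with r = 0.52, as were 28 of the 31 genes higher and 155 of the 209 genes lower at an adjusted p of 0.1. With the log2 slow fibre share as a covariate in limma, Mss51 had a log2 difference of 1.19 and Mad2l1bp of −0.80, both with an adjusted p of 0.192, and no gene passed 0.05. At an unadjusted p under 0.05 that fit left 459 genes higher (4.30%) and 665 lower (6.23%). With 6 libraries it has 3 residual degrees of freedom per gene before the pooling of the spread.

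**Figure D2:**
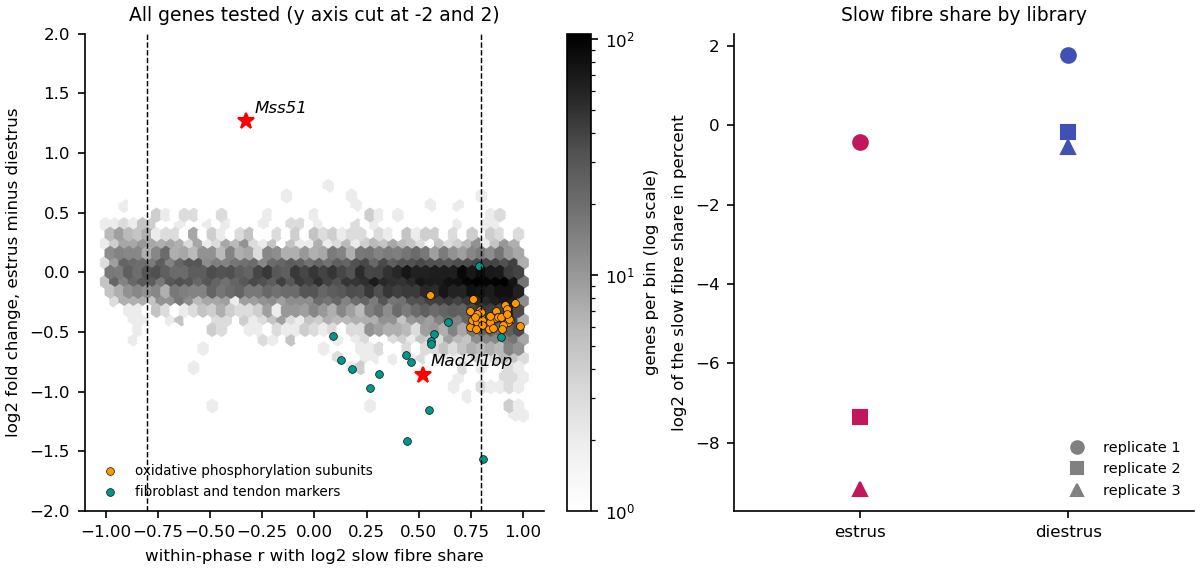
Left, log2 difference between the phases (vertical, estrus minus diestrus, cut at −2 and 2) against the within-phase Pearson r with the log2 slow fibre share (horizontal) for all 10680 tested genes, with subunits of oxidative phosphorylation and fibroblast genes marked and Mss51 and Mad2l1bp as stars. Right, the log2 slow fibre share of each library: estrus replicate 1 is level with diestrus replicates 2 and 3, and estrus replicates 2 and 3 lie far below.

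Mitochondrial genes were lower in estrus as a body. All 35 tested subunits of the respiratory chain and ATP synthase were lower by sign, with a median log2 difference of −0.38, beside −0.08 over all genes. The list median was −0.28 with equal medians and −0.19 after quantile normalization. Of the 35, 32 had no overlap between the phases (beside 21.9% of all genes below without overlap) and 32 were lower at an unadjusted p under 0.05 (18.0% of all genes), a number that was 31 with equal medians and 17 after quantile normalization. None passed an adjusted p of 0.05. Cyc1, cytochrome c1 of complex III, was at 319.64, 286.88 and 260.19 FPKM in estrus and 403.42, 415.11 and 387.43 FPKM in diestrus (log2 difference −0.48, adjusted p = 0.094, limma). Atp5g3, a ring subunit of ATP synthase, was at 363.56, 335.84 and 307.56 FPKM against 455.68, 488.92 and 456.91 FPKM (log2 difference −0.48, adjusted p = 0.092, limma). In both genes estrus replicate 1 was the highest of its phase and still below all diestrus libraries.

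The tricarboxylic acid cycle, which feeds the respiratory chain, had all 21 tested genes lower in estrus by sign. The median log2 difference was −0.34 (−0.24 with equal medians and −0.18 after quantile normalization), and 20 had no overlap. Lower at an unadjusted p under 0.05 were 20, beside 18.0% of all genes, and 12 after quantile normalization. Mdh2, mitochondrial malate dehydrogenase, was at 614.91, 547.86 and 511.12 FPKM against 747.25, 739.74 and 764.85 FPKM (log2 difference −0.43). Sdhb, the iron-sulfur subunit of succinate dehydrogenase, was at 407.12, 317.67 and 255.74 FPKM against 537.37, 514.67 and 503.22 FPKM (log2 difference −0.69). The largest difference of the list was that of Idh2, mitochondrial isocitrate dehydrogenase, at 122.53, 45.56 and 47.74 FPKM against 246.66, 130.88 and 134.5 FPKM (log2 difference −1.33). In Idh2 estrus replicate 1 lay just under the lowest diestrus library, while estrus replicates 2 and 3 were far lower.

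Most genes of fatty acid uptake and oxidation were lower too. Of 32 tested, 29 were lower in estrus by sign, with a median of −0.50 (−0.41 with equal medians), and 20 were lower at an unadjusted p under 0.05, beside 18.0% of all genes. Positive followers of the slow fibre share made up 28 of these 32 genes, beside 20.6% of all genes. They made up 18 of the 21 genes of the cycle and 22 of the 35 respiratory subunits. Lpl, the lipase that frees fatty acids from circulating triglyceride, was at 241.39, 121.26 and 70.45 FPKM in estrus and 362.12, 263.46 and 273.32 FPKM in diestrus (log2 difference −1.21). Acads, the short-chain acyl-CoA dehydrogenase, was at 28.03, 27.09 and 25.57 FPKM against 35.01, 35.64 and 32.93 FPKM (log2 difference −0.35, adjusted p = 0.094, limma). Fabp3, the fatty acid binding protein of muscle, was at 595.53, 222.13 and 251.19 FPKM against 836.48, 536.03 and 591.41 FPKM, where estrus replicate 1 lay inside the diestrus range. Of the list of amino acid and ketone metabolism, 20 of 20 were lower by sign, with a median of −0.29 (−0.19 with equal medians and −0.18 after quantile normalization). Of them 13 had an unadjusted p under 0.05 (8 after quantile normalization, 7 without diestrus replicate 1 and 8 without estrus replicate 2 or 3), beside 18.0% of all genes lower at that level. Its largest difference was that of Bdh1, the ketone body dehydrogenase, at 9.99, 2.39 and 2.99 FPKM against 24.65, 14.29 and 14.52 FPKM.

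These groups were set beside the slow fibre share in 2 ways. In the fit with the share as a covariate, 10 of 35 respiratory subunits, 5 of 21 genes of the cycle and 4 of 32 fatty acid genes were lower at an unadjusted p under 0.05, and 5 fatty acid genes were higher, beside 6.23% and 4.30% of all genes. The list medians in that fit were −0.18, −0.16 and −0.07. Estrus replicate 1, whose Myh7 share lay within the diestrus range, gave a second reading with no test. Its fibre mix was not matched in full. Its Myh4 share of 80.1% lay above the 72.4 to 76.5% of diestrus, and its Myh2 share of 5.80% just below the 5.90 to 11.5% of diestrus. It lay below all 3 diestrus libraries in 32 of 35 respiratory subunits (91.4%) and 20 of 21 genes of the cycle (95.2%), beside 35.5% of all genes. For fatty acid genes the count was 17 of 32, and for slow fibre genes 3 of 15. Estrus replicate 3, which shares the traces such as Cyp11a1 with the diestrus libraries, lay below them in 35 of 35, 21 of 21 and 32 of 32 genes of the 3 metabolic lists, beside 57.1% of all genes.

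**Figure D3:**
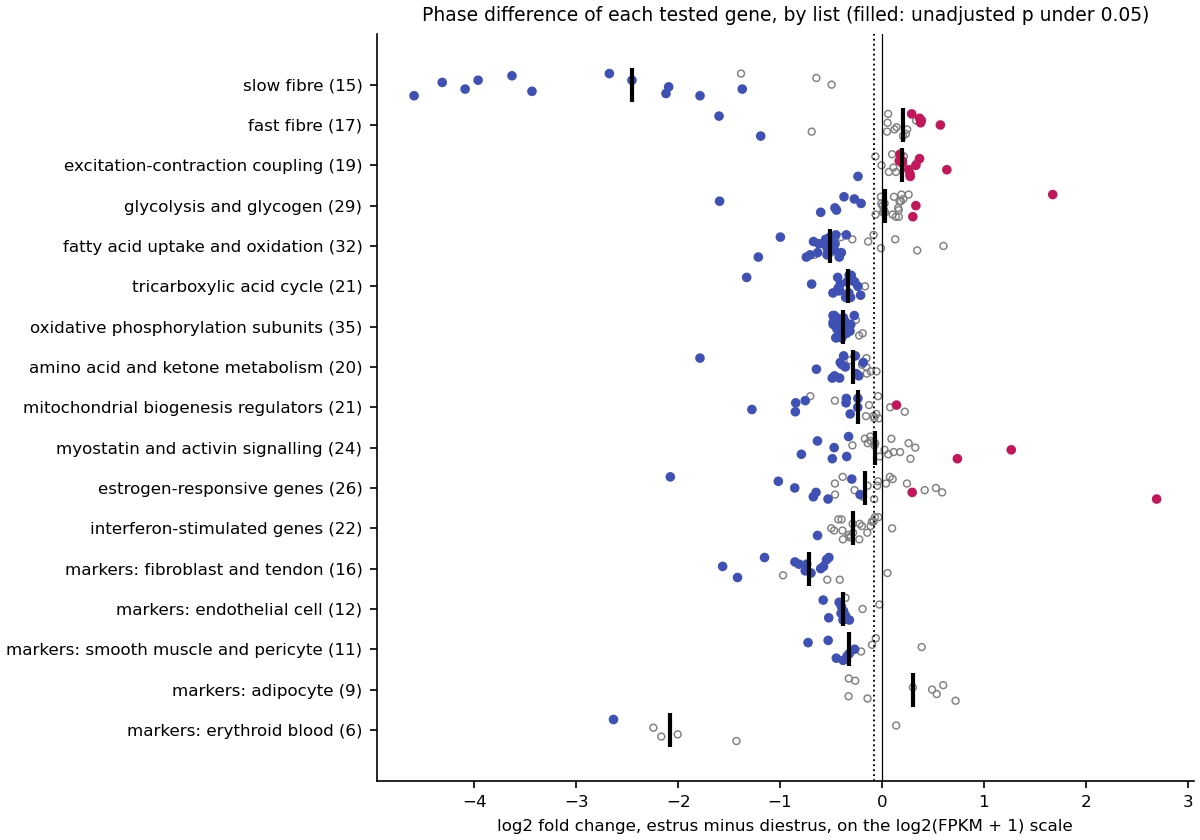
Log2 difference (estrus minus diestrus) of each tested member of 17 gene lists (points, filled where the unadjusted limma p was under 0.05), with the list median (bar) and the median of all genes, −0.08 (dotted line). The medians of slow fibre, respiratory, cycle, fatty acid, fibroblast and endothelial genes lie left of the dotted line, with single fatty acid and fibroblast members right of it, and the median of excitation-contraction coupling lies right of it.

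Regulators of mitochondrial content were lower in part. Of 21 tested, 9 had an unadjusted p under 0.05 and were lower (42.9%, beside 18.0% of all genes), 1 was higher (2 with equal medians, 0 without estrus replicate 2, estrus replicate 3, diestrus replicate 2 or diestrus replicate 3) and the median was −0.24 (−0.14 with equal medians and −0.11 after quantile normalization). Ppara, the nuclear receptor that drives genes of fat oxidation, was at 7.54, 4.07 and 3.54 FPKM in estrus and 15.14, 10.67 and 13.81 FPKM in diestrus (log2 difference −1.28, adjusted p = 0.094, limma). Ppargc1a, the coactivator PGC-1α, was at 12.8, 8.18 and 7.88 FPKM against 12.93, 22.2 and 19.19 FPKM (log2 difference −0.85), with the highest estrus library next to the lowest diestrus library. Esrra, its partner receptor ERRα, was at 44.53, 38.14 and 35.7 FPKM against 49.62, 50.49 and 51.15 FPKM (log2 difference −0.35). Tfam, which packs and transcribes mitochondrial DNA, was at 13.3 to 16.0 FPKM in estrus and 17.1 to 17.31 FPKM in diestrus, with r of 0.05 to the slow fibre share.

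Glycolysis and glycogen genes lay higher than all genes by sign and by median, and a few stood out in both directions. Of 29 tested, 19 were higher and 10 lower by sign, beside 29.6% and 70.4% of all genes. The median was 0.030 (0.12 with equal medians and 0.21 after quantile normalization). Over all genes it was −0.08 (0.011 and 0.023 under the same scalings). At an unadjusted p under 0.05, 3 were higher and 7 lower, beside 2.85% and 18.0% of all genes. The 3 became 5 with equal medians, 8 after quantile normalization and 12 without estrus replicate 1, and the 7 became 4 without estrus replicate 2 and 3 without diestrus replicate 1. Over all genes, the 304 higher became 818 with equal medians, 929 after quantile normalization and 393 without estrus replicate 1. Pfkfb3, which makes the activator of phosphofructokinase, was at 86.43, 85.05 and 73.12 FPKM in estrus and 19.07, 55.03 and 14.17 FPKM in diestrus (log2 difference 1.68, adjusted p = 0.110, limma). The estrus libraries were close together and all above diestrus, whereas the diestrus libraries ranged widely. Gys1, glycogen synthase of muscle, was at 150.1, 140.98 and 144.86 FPKM against 181.06, 175.85 and 169.44 FPKM (log2 difference −0.27, adjusted p = 0.102, limma). Hk2 and Slc2a4, the hexokinase and the insulin-regulated glucose transporter of muscle, were lower without overlap, at 41.46 to 49.68 against 50.12 to 76.06 FPKM and at 243.31 to 253.58 against 268.37 to 296.54 FPKM.

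The list of excitation-contraction coupling leaned higher, with a median near that of the fast fibre list in FPKM as deposited. These genes carry the electrical signal of the fibre membrane to calcium release from the sarcoplasmic reticulum. Of 19 tested, 16 were higher in estrus, with a median log2 difference of 0.20 (0.29 with equal medians and 0.32 after quantile normalization), and 10 were higher at an unadjusted p under 0.05, beside 2.85% of all genes. That number was 6 without estrus replicate 2, estrus replicate 3 or diestrus replicate 3 and 5 without diestrus replicate 1. Ryr1, the calcium release channel, was at 311.15, 329.58 and 344.23 FPKM in estrus and 283.82, 292.53 and 293.41 FPKM in diestrus (log2 difference 0.18). Cacna2d1, a subunit of the voltage sensor complex, was at 97.21, 100.92 and 90.94 FPKM against 79.43, 82.6 and 78.11 FPKM (log2 difference 0.26). Jph2, a junctophilin that ties the membranes together, was at 259.5, 281.6 and 333.17 FPKM against 214.36, 241.58 and 217.42 FPKM (log2 difference 0.37). The phases did not overlap in these 3, nor in Trdn and Mrln. In estrus replicate 1, 13 of the 19 genes lay above all diestrus libraries, beside 24.4% of all genes. Of the 19, 7 were negative followers, beside 4.67% of all genes. With the share as a covariate 3 were higher at an unadjusted p under 0.05, beside 4.30% of all genes.

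The list of myostatin and activin signalling, to which Mss51 belongs, had members on both sides. Of 24 tested, 10 were higher and 14 lower, with a median of −0.07 that turned to 0.02 with equal medians. Mstn, which encodes myostatin, the secreted brake on muscle growth, was at 28.48, 30.92 and 38.35 FPKM in estrus and 14.96, 18.9 and 23.97 FPKM in diestrus (log2 difference 0.74, adjusted p = 0.107, limma), with no overlap. Fstl1, given above, Ltbp4, a binding protein of latent TGF-β, Tgfbr2 and Tgfb1 were among the 6 members lower at an unadjusted p under 0.05 (25.0%, beside 18.0% of all genes). Ltbp4 was at 20.4 to 27.06 FPKM in estrus and 35.76 to 40.99 FPKM in diestrus. The activin receptor gene Acvr2b, at 4.54 to 4.81 against 3.36 to 4.62 FPKM, and the follistatin gene Fst, at 0.88 to 1.61 against 1.43 to 2.08 FPKM, overlapped.

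Receptors of steroid hormones were read at the RNA level. Esr1, estrogen receptor α, was at 7.36, 6.42 and 7.15 FPKM in estrus and 6.8, 6.37 and 7.25 FPKM in diestrus. Nr3c1, the glucocorticoid receptor, was at 18.88 to 28.25 FPKM against 24.69 to 26.93 FPKM. The phases overlapped in both. Pgr, the progesterone receptor, was at 0.01 to 0.21 FPKM and Esr2, estrogen receptor β, at 0.08 to 0.16 FPKM, under the filter. Of 11 tested receptors and coregulators, 1 was lower at an unadjusted p under 0.05 (9.09%, beside 18.0% of all genes), Ncoa3, at 3.74 to 5.06 against 5.35 to 6.27 FPKM. The number was 3 without estrus replicate 2 and 0 without diestrus replicate 1.

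A list of estrogen-responsive genes, written from other tissues, had members on both sides. Of 26 tested, 9 were higher and 17 lower by sign, with a median of −0.16 (−0.069 with equal medians and −0.046 after quantile normalization). At an unadjusted p under 0.05, 2 were higher and 8 lower, beside 2.85% and 18.0% of all genes. The 8 became 5 with equal medians, after quantile normalization or without diestrus replicate 2 or 3, and 4 without estrus replicate 3 or diestrus replicate 1. The 2 became 0 without estrus replicate 2 or diestrus replicate 3 and 1 without diestrus replicate 2. One of the 2 higher genes was Tff1, whose signal lay in the libraries with gastric genes. Ccnd1, cyclin D1, was at 2.37, 3.87 and 2.88 FPKM in estrus and 5.44, 4.55 and 5.83 FPKM in diestrus (log2 difference −0.65). Cish and Socs2, which are induced by growth hormone and prolactin signalling, were at 2.76, 8.78 and 1.19 against 17.8, 40.89 and 6.67 FPKM and at 8.08, 16.57 and 5.15 against 25.75, 22.51 and 11.91 FPKM. Both were lower by their means, and the ranges overlapped. Of 16 glucocorticoid-responsive genes 2 were lower at an unadjusted p under 0.05 (12.5%, beside 18.0% of all genes), and the 2 became 1 with equal medians or without estrus replicate 3 or diestrus replicate 1 and 5 without diestrus replicate 2. They were led by the transcription factor gene Zbtb16 at 15.21, 8.83 and 8.13 against 20.29, 20.71 and 27.97 FPKM (log2 difference −1.07, adjusted p = 0.099, limma).

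The lists of fibre growth and breakdown held fewer lower genes than the 18.0% of all genes at an unadjusted p under 0.05. Of 23 insulin and growth signalling genes, 3 were lower at that level, Akt1, Igf2 and Pik3r1, and without diestrus replicate 1 or estrus replicate 1 the number was 1 or 7. Akt1, a kinase downstream of the insulin receptor, was at 25.59, 26.91 and 24.65 FPKM in estrus and 39.3, 36.17 and 34.9 FPKM in diestrus (log2 difference −0.50, adjusted p = 0.087, limma), whereas Akt2, the isoform more abundant here, was level at 119.15 to 120.67 against 113.11 to 122.18 FPKM. Of 27 atrophy and proteolysis genes, 3 were lower at that level, Bnip3, Gabarapl1 and Foxo1, and 0 higher. Without estrus replicate 2 or diestrus replicate 1 the 3 became 1, and without estrus replicate 1 or diestrus replicate 2 they became 5. The medians of both lists, −0.040 and −0.006, turned to 0.054 and 0.087 with equal medians. Of 10 polyamine and androgen-responsive genes, 1 was higher at that level (2 with equal medians, 3 without estrus replicate 1), the spermine synthase gene Sms.

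In FPKM as deposited and with all 6 libraries, other lists held more lower genes than that share. Of 20 heat shock genes, 1 was higher and 6 were lower at an unadjusted p under 0.05 (30.0%), among them Hspb6 and Hspb7, in which the phases overlapped, and the 6 became 2 without diestrus replicate 1 and 3 without estrus replicate 3. Of 15 genes of the neuromuscular junction, 13 were lower by sign and 4 at that level (26.7%), with a median of −0.31 (−0.22 with equal medians). With equal medians, after quantile normalization, without estrus replicate 2 or without diestrus replicate 3 the 4 became 1, and without diestrus replicate 1 they became 2. Over all 10680 genes, the 1921 lower became 1153 with equal medians and 1024 after quantile normalization. They became 1446 without estrus replicate 2, 1426 without diestrus replicate 3 and 1277 without diestrus replicate 1. Among the 4 was Musk, its organising receptor kinase, at 1.36 to 1.83 against 2.19 to 3.19 FPKM. Among secreted muscle proteins, 11 of 12 were lower by sign and 8 at that level (66.7%), with a median of −0.35 (−0.26 with equal medians). The 8 became 5 with equal medians or without estrus replicate 3 or diestrus replicate 2, and 4 after quantile normalization or without diestrus replicate 1. Fndc5, the precursor of irisin, was at 59.67, 31.57 and 27.41 FPKM against 78.9, 82.75 and 78.57 FPKM (log2 difference −1.08).

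Markers of the cells between the fibres were lower in estrus as well. In bulk tissue, fewer cells of a type and less RNA per cell cannot be told apart. Of the fibroblast and tendon genes, 15 of 16 were lower by sign, with a median of −0.72 (−0.62 with equal medians), 12 at an unadjusted p under 0.05 and 11 without overlap, and only 2 followed the slow fibre share. Over all genes, 70.4% were lower by sign, 18.0% lower at that level and 21.9% below without overlap, and 25.3% followed the share. Sparc, a matrix glycoprotein counted among the secreted proteins, was at 106.56, 97.31 and 92.97 FPKM in estrus and 190.15, 134.69 and 177.76 FPKM in diestrus (log2 difference −0.74, adjusted p = 0.092, limma). Fn1, fibronectin, was at 6.7, 5.96 and 6.06 FPKM against 13.48, 9.34 and 13.89 FPKM (log2 difference −0.85, adjusted p = 0.092, limma). Tnmd, the tendon cell marker tenomodulin, was at 3.21, 1.2 and 1.23 FPKM against 12.29, 5.08 and 5.59 FPKM (log2 difference −1.56). The phases did not overlap in the 3 genes. The summed FPKM of the 16 genes was 424.8, 327.0 and 287.3 in estrus and ranged from 473.3 to 671.9 in diestrus. With the share as a covariate, 1 of the 16 was lower at an unadjusted p under 0.05, beside 6.23% of all genes. The list median in that fit was −0.48.

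Endothelial genes were lower by sign in 12 of 12, 9 of them at an unadjusted p under 0.05 (5 without estrus replicate 2, 6 without estrus replicate 3, diestrus replicate 1 or diestrus replicate 3), with a median of −0.38 (−0.29 with equal medians). Pecam1, an adhesion protein of endothelium, was at 24.19, 22.38 and 17.09 FPKM in estrus and 29.97, 30.89 and 30.9 FPKM in diestrus (log2 difference −0.52). Of 11 genes of smooth muscle and pericytes, 10 were lower by sign and 7 at that level, among them Mylk and Pdgfrb. Of 8 Schwann cell genes 7 were lower by sign and 4 at that level, among them Pmp22, Prx and Sox10. Of 8 macrophage genes, 8 were lower by sign, and 3 were lower at an unadjusted p under 0.05, with log2 differences of −0.37 to −0.35. These 3 became 1 with equal medians or without estrus replicate 2, estrus replicate 3 or diestrus replicate 3, 0 after quantile normalization and 5 without estrus replicate 1. Of 8 satellite cell genes 1 was lower at that level (12.5%, and 0 with equal medians), and none of the neutrophil, lymphocyte, skin, mammary or proliferation genes tested had an unadjusted p under 0.05. All these counts stand beside 70.4% of all genes lower by sign and 18.0% lower at an unadjusted p under 0.05.

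Fat genes did not separate the phases, and blood genes varied widely between libraries. The summed FPKM of adipocyte genes was 812.2, 662.6 and 354.3 in estrus and 433.8, 762.3 and 776.3 in diestrus, and none of 9 tested had an unadjusted p under 0.05. All 3 tested genes of brown adipocytes were lower, but 2 of them, Cox8b and Ppargc1a, are muscle genes as well, and Ucp1, their defining marker, was at 0 to 0.1 FPKM in estrus replicates 1 and 2 and above 1 FPKM in the other 4 libraries. Erythroid genes, which track the blood left in a piece, summed to 403.2, 188.9 and 659.0 FPKM in estrus and to 3343, 344.6 and 2775 FPKM in diestrus. Diestrus replicate 2 lay among the estrus libraries. Of 6 tested genes, 5 were lower by sign, with a median log2 difference of −2.08, and 1 was lower at an unadjusted p under 0.05. That number was 5 without diestrus replicate 2, 3 without estrus replicate 3 and 0 without any other single library. Of 22 interferon-stimulated genes, 21 were lower by sign and 1, Rsad2, had an unadjusted p under 0.05, beside 70.4% and 18.0% of all genes. Without diestrus replicate 1 the number at an unadjusted p under 0.05 was 11.

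Slow fibres share several genes with cardiomyocytes. Of the 4 cardiomyocyte genes tested here, 0 were positive followers of the slow fibre share and 1 was a negative follower. Over all genes the shares were 20.6% and 4.67%. Of 4 tested, Actc1, cardiac actin, was at 489.67, 1394 and 1515 FPKM in estrus and 998.68, 874.88 and 776.39 FPKM in diestrus, a log2 difference of 0.20 whose sign turned in 4 of the alternatives. The highest and the lowest library were both from estrus. The other 3, Myl4, Gja1 and Tnnt2, were lower at an unadjusted p under 0.05, beside 18.0% of all genes.

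Without estrus replicate 1, both estrus libraries that remain have a Myh7 share near 0, and 85 genes were lower in estrus by both limits (0.796%) and 2 higher (0.0187%), Mss51 and Htra4. At an adjusted p of 0.05 alone, 1024 were lower (9.59%) and 98 higher (0.918%) in limma, and at an unadjusted p under 0.05 the numbers were 2711 (25.4%) and 393 (3.68%). The lower genes with the smallest p included Atp1b1, a subunit of the sodium pump, at 107.39, 42.18 and 41.78 FPKM in estrus and 125.18 to 127.41 FPKM in diestrus. They also included Fhl1, a LIM protein of the sarcomere, at 737.66, 193.74 and 225.38 against 680.65 to 757.86 FPKM, and Ldhb, the heart form of lactate dehydrogenase, at 222.71, 50.39 and 48.68 against 217.74 to 306.59 FPKM. In all 3 genes estrus replicate 1 was far above the other estrus libraries. Of the 35 respiratory subunits 30 passed 0.05 in that fit and were lower, of the 21 genes of the cycle 17, of 32 fatty acid genes 25, of 15 slow fibre genes 13 and of 16 fibroblast genes 6.

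Several libraries held genes apart from the other 5. Estrus replicate 1 held 17 tested genes at 2 times or more the next highest library and 8 at no more than 1/2 of the next lowest. For diestrus replicate 1 the numbers were 25 and 29, for estrus replicate 2 they were 5 and 28, for estrus replicate 3 they were 3 and 35, and the last 2 libraries held 6 or fewer of either kind. In estrus replicate 1 they included genes of the clock and of fuel use. Pdk4, the kinase that shuts pyruvate out of mitochondria, was at 530.19 FPKM there and at 70.27 to 157.94 FPKM in the other 5 libraries. Dbp, an output gene of the circadian clock, was at 13.22 FPKM there and at 67.1 to 122.06 FPKM elsewhere, while Arntl, the clock activator BMAL1, was highest there at 15.42 FPKM against 2.16 to 7.15 FPKM. Irs2, the insulin receptor substrate, and Fos, an immediate early gene, were at 12.23 and 15.8 FPKM against at most 4.95 and 3.38 FPKM. The libraries with the same number in heart and liver were low in Dbp too, at 12.5 and 0.98 FPKM, where the other libraries of those tissues held 45.12 to 153.44 and 44.04 to 127.24 FPKM. Not all tissues showed this: estrus replicate 1 was the lowest of 6 in Dbp in 9 of 15 tissues, muscle included, and the highest in ovary and vein, at 153.94 and 252.14 FPKM, while diestrus replicate 1 was the lowest in aorta, duodenum, ovary and vein. Time of day and feeding are not labelled, and their part in the phase differences was not tested. Of 10 clock genes in the phase of Dbp, Nr1d1 and Bhlhe40 were higher and Per2 lower at an unadjusted p under 0.05 (20.0% and 10.0%, beside 2.85% and 18.0% of all genes). Per2 was at 0.74, 3.09 and 4.19 FPKM in estrus against 4.35 to 8.2 FPKM in diestrus.

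**Figure D4:**
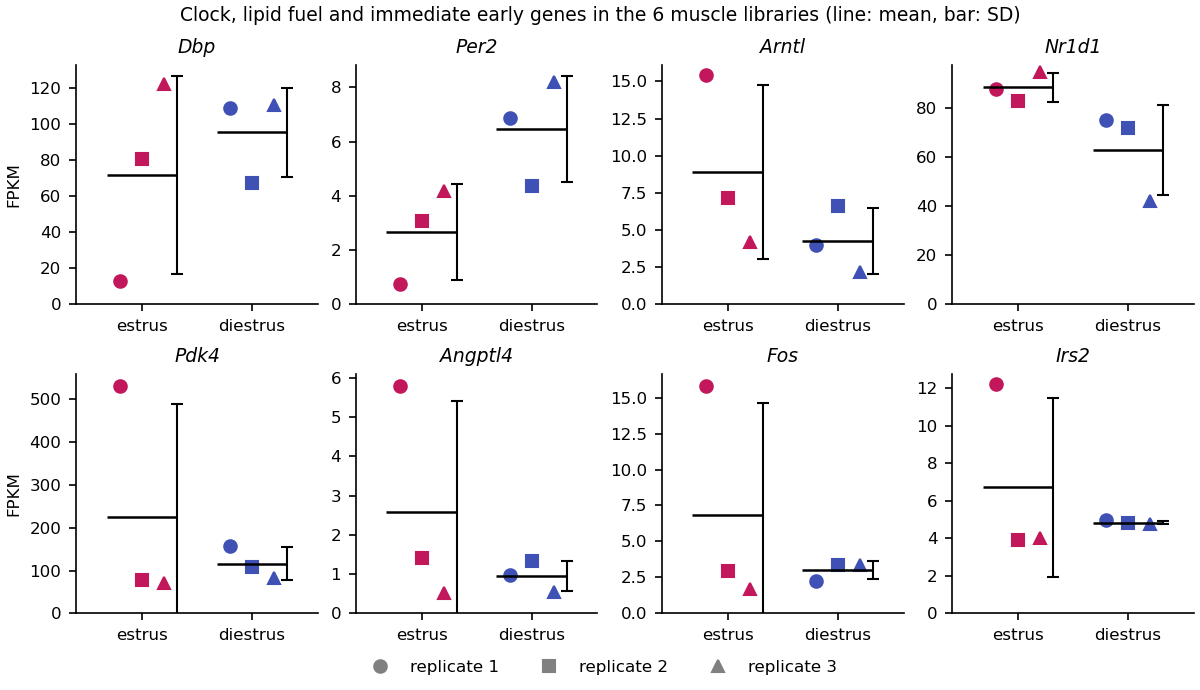
FPKM of Dbp, Per2, Arntl, Nr1d1, Pdk4, Angptl4, Fos and Irs2 in each muscle library, with the mean and SD of each phase (n = 3). Estrus replicate 1 holds the lowest Dbp (13.22) and Per2 (0.74) and the highest Arntl (15.42), Pdk4 (530.19), Angptl4 (5.79), Fos (15.8) and Irs2 (12.23).

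Heart, the other striated muscle of the series, was set beside skeletal muscle in 1 fit of 12 libraries to test where the phase difference itself differed. By the study's account the tissues of a phase were dissected from the same 3 mice, whereas this fit treats the 12 libraries as independent. Of 11970 genes that averaged 1 FPKM or more in either tissue, 3 (0.0251%) passed an adjusted p of 0.05 for the interaction in limma. Mss51 differed by 1.21 (adjusted p = 0.0189), but passed the filter through muscle alone. At 0.19 to 0.37 FPKM in heart the log2(FPKM + 1) scale leaves almost no room for a difference there, so this value restates the one in muscle. Mad2l1bp differed by −1.002 (adjusted p = 0.0189), with 0.14 in heart. Prss23, a secreted serine protease, differed by −0.78 (adjusted p = 0.0476). In muscle Prss23 was at 37.52, 41.01 and 34.48 FPKM in estrus and 46.87, 45.13 and 48.97 FPKM in diestrus, whereas in heart it was at 9.8, 10.28 and 10.6 FPKM in estrus and 6.76, 7.79 and 6.87 FPKM in diestrus. The phases did not overlap in either tissue and their order was opposite.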

How the data were processed

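The authors trimmed reads with SOAPnuke, aligned them with Bowtie2 2.2.5 to the transcripts of GRCm38.p5 and estimated expression with RSEM 1.2.8, according to the study's methods and the submitters' processing notes. The deposited values were taken as FPKM per gene, named by Entrez Gene number. The study's methods name RSEM but no unit. The unit was therefore inferred, from the use of RSEM and from the values, which sum to 499721 to 520638 per muscle library. Symbols came from RefSeq's table for GRCm38.p6, and 149 of 20414 genes had none. Read counts were not recovered: steps in the low values gave whole reads, within 0.2, for only 53.0% to 65.2% of values. The study's methods give only an approximate read number common to all samples, so no interval for counting error is given.

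Values were log2(FPKM + 1), which understates the change of low genes. Genes that averaged 1 FPKM or more were tested with limma 3.58.1 in R 4.3.3 (trend on the mean level) over the 6 muscle libraries, with Benjamini-Hochberg adjustment. Where a gene is called lower or higher at an unadjusted p, the p is that of the same fit. Genes were named by fixed rules: those passing the test, the 12 with the smallest p in each direction with a log2 difference of at least 0.5 and no overlap, list members of high level or with p under 0.05, and the 10 most abundant followers of each sign. Genes of single libraries, of other organs and of the fit without estrus replicate 1 were picked after their values were seen. The members and gene lists were chosen with earlier results of these data known, so lists are described by counts beside all genes and carry no test. The p-values measure the spread between 3 mice a phase. The limma step was tested on simulated data. Alternatives were another pseudocount, filter, scaling, sample set, replicate block, covariate and the removal of libraries. Some members of the gene lists are counted but not reported here by name.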

Additional observations from a re-analysis of the deposited data

Results flagged for a closer look

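In 3 genes, the phase difference differed between skeletal muscle and heart by the test of the difference itself, the interaction of tissue and phase in limma with Benjamini-Hochberg adjustment over 11970 genes. The count was 1 with a pseudocount of 0.1, 2 with the replicate block and ran from 0 to 569 when 1 muscle library was left out. For Mss51 the log2 difference in muscle minus that in heart was 1.21 (adjusted p = 0.0189), with estrus above diestrus in all 3 estrus libraries of muscle. Heart, at 0.19 to 0.37 FPKM, lay below the filter, where a pseudocount of 1 leaves almost no difference to see, so this value restates the difference in muscle. For Mad2l1bp it was −1.002 (adjusted p = 0.0189), with all 3 estrus libraries of muscle below all diestrus libraries and overlapping phases in heart. For Prss23 it was −0.78 (adjusted p = 0.0476), with the phases apart and in opposite order in the 2 tissues.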

How the results depend on the processing

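The number of genes passing both limits, 1 in the fit reported, was 0 with no filter, 20 in one fit of all 90 libraries, 3 with the replicate block, 2 with no limit on the fold, 4 at an adjusted p of 0.1 and 0 with the slow fibre share as a covariate. It ran from 0 to 87 when 1 library was left out. Chosen after seeing the data, it was 18 without estrus replicates 2 and 3 and 124 without estrus replicates 1 and 2. Whether the replicate numbers pair the libraries was not settled. Same-numbered libraries correlated at 0.109, 0.185 and 0.045, and 4 of 6 libraries matched best with their own number. With the block Tnmd, Sln and Cish passed both limits and Mss51 did not. Mss51 and Mad2l1bp also missed 0.05 with no filter (limma adjusted p = 0.0736 for both), with the block (0.0863) and with the covariate (0.192).

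At an unadjusted p under 0.05, the 304 genes higher in estrus became 818 with equal medians, 929 after quantile normalization, 78 in the 90-library fit and 459 with the covariate, and ran from 184 to 393 without 1 library. The 1921 lower genes became 1153, 1024, 501 and 665 under the same settings, 779 without estrus replicates 2 and 3, and 1277 to 2711 without 1 library. The 2697 followers became 1269 at an absolute r of 0.9 and 945 with the share in percent in place of log2, and 2503 to 4124 without 1 library. With the covariate, 0 to 13 genes passed both limits without 1 library. The interaction count of 3 was 1 with a pseudocount of 0.1, 2 with the replicate block and 0 to 569 without 1 muscle library. The difference in slow fibre share kept its sign under each alternative, and ran from −1.88 to −0.533 points without 1 library.

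Of 1048 values of 62 genes described by a phase difference, 1044 kept their direction under these settings. The exceptions were all Actc1, at −0.83 with the covariate, −0.84 without estrus replicates 2 and 3, and −0.088 and −0.028 without estrus replicate 3 or 2, in a range of −0.088 to 0.73 without 1 library. Of 71 other tested genes named for a level, a list or a library, 22 turned sign or went to 0 in 46 of 1189 values. Without estrus replicate 1, Dbp went from −0.85 to 0.092, Pdk4 from 0.35 to −0.60, Fos from 0.51 to −0.28 and Irs2 from 0.24 to −0.23. With the covariate, 10 genes turned, among them Fhl1 (−1.17 to 0.064), Tpm1 (0.050 to −0.29), Ckm (0.20 to −0.040) and Cox6a2 (−0.26 to 0.031). Of 351 list medians, 316 moved by less than 1 SD. The cause of these changes was not tested. The depth of single libraries was not recovered, and 3 mice a phase limit the precision.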
